A study of Mus musculus with 6 samples.

Results

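Genes of the LIN28 and let-7 pathway and of microRNA processing were followed in V6.5 murine ESCs after depletion of cohesin or condensin subunits. The 10 genes were fixed by name (Lin28a, Lin28b, Trim71, Hmga2, Igf2bp1, Igf2bp2, Igf2bp3, Dgcr8, Drosha and Dicer1), among 21125 genes with a row in the deposited values, and each was read from the RefSeq row with the most counts. V6.5 is a mouse embryonic stem cell line grown on irradiated fibroblasts. All cells were infected with lentiviral shRNA constructs and selected with puromycin, at 0.5 µg/ml for 48 hr and then at 1 µg/ml for 48 hr. The libraries were 1 from cells given an shRNA against GFP (the GFP control, a gene that mouse cells lack), 1 with an shRNA against SMC1 (a cohesin subunit encoded by Smc1a), 2 with CAPH2 shRNAs (a condensin II subunit encoded by Ncaph2) and 2 with SMC2 shRNAs (a core condensin subunit). The paired libraries of a target came from different hairpins and are called #1 and #2. RNA from 652000 cells per library received synthetic ERCC spike-in RNAs. The library kit, TruSeq RNA, selects polyadenylated transcripts, so mature microRNAs were not measured. The values are RPKM, exonic reads per length of exon and per depth of the library, and the counts over RefSeq rows came to between 25016322 and 30988288 per library.

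let-7 microRNAs lower the translation and stability of mRNAs that pair with their seed, the stretch of bases near the 5′ end. Their precursors are cut in the nucleus by Drosha with its partner Dgcr8 and in the cytoplasm by Dicer1. Lin28a and Lin28b encode RNA-binding proteins that hold back let-7 maturation in pluripotent cells, and the Lin28 mRNAs are themselves let-7 targets, so each arm of the pathway can lower the other. Trim71, Hmga2 and the Igf2bp genes are long-known let-7 targets that are expressed in early embryos.

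The mature sequences show what the family shares. The 9 distinct let-7 and miR-98 sequences in the RefSeq table (GRCm38.p6) all carry the seed GAGGUAG at bases 2 to 8, shown in capitals, and differ from one another only outside it. Of 1738 mature microRNA entries in that table, 13 carry these letters at these bases. The 9 sequences were taken from 11 hairpin genes, with let-7c and let-7f entered for 2 genes each. The other entries with these letters were not examined.
mmu-let-7a-5p: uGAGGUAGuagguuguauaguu
mmu-let-7b-5p: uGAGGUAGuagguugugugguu
mmu-let-7c-5p: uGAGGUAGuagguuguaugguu
mmu-let-7d-5p: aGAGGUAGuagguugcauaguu
mmu-let-7e-5p: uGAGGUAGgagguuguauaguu
mmu-let-7f-5p: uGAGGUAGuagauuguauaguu
mmu-let-7g-5p: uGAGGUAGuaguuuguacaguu
mmu-let-7i-5p: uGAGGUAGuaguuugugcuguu
mmu-miR-98-5p: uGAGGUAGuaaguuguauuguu

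LIN28 proteins bind a GGAG stretch in the loop side of let-7 precursors. The let-7g hairpin is given as an example, with GGAG in capitals between the mature arms. These letters occur between the arms in 8 of the 11 let-7 family hairpins examined (not in Mirlet7c-2, Mirlet7b and Mir98). Mirlet7a-2 was not among the 11. Of 644 hairpins in the table, 8.07% hold these letters between the arms.
Mirlet7g: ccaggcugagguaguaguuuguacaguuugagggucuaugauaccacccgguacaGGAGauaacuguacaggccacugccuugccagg

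The seed pairs with CTACCTC in a 3′ UTR, and a following A strengthens the site. At least 1 such match lay in the longest annotated 3′ UTR (GENCODE, mm9) of 7 of the 10 genes, against 8.80% of 19915 genes with a 3′ UTR. Lin28b, Hmga2 and Igf2bp1 each held 4 matches, Lin28a and Trim71 held 2, and Igf2bp2 and Igf2bp3 held 1. The processing genes Dgcr8, Drosha and Dicer1 held 0, although the annotated 3′ UTR of Drosha was only 168 bases long. At least 2 matches were found in 5 of the 10 genes and in 1.01% of all genes. These shares were not matched for length. The 3′ UTRs of the 10 genes ran from 168 to 6337 bases, and the median of all genes was 893 bases. Per kilobase of 3′ UTR, the 10 genes held 0.656 matches and all genes held 0.0762. The 10 genes include long-known let-7 targets, so their share is not that of an unselected set. The first match that is followed by A is printed for each of the 7 genes, together with the second match of Trim71, which lies close to its first. Capitals mark the match with its A, and each sequence reads 5′ to 3′ on the mRNA strand.
Lin28a (chr4:133561103-133561125, minus strand): cacagcctgttgaaCTACCTCAt
Lin28b (chr10:45100827-45100849, minus strand): cccgggcgggaagtCTACCTCAt
Trim71, first (chr9:114421589-114421611, minus strand): acattgcctaagtcCTACCTCAg
Trim71, second (chr9:114421493-114421515, minus strand): gtgataatttctatCTACCTCAa
Hmga2 (chr10:119801279-119801301, minus strand): ccgacattcaatttCTACCTCAg
Igf2bp1 (chr11:95823091-95823113, minus strand): ctgtgcgaagtaaaCTACCTCAa
Igf2bp2 (chr16:22059545-22059567, minus strand): cacacaaataaaagCTACCTCAg
Igf2bp3 (chr6:49036785-49036807, minus strand): gcatttttactcaaCTACCTCAg
A match describes these letters in the annotated 3′ UTR and is not a measured site.

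The targets were lower in RPKM with their own hairpins, to different degrees. Smc1a had an RPKM of 36.1 in the GFP control and 14.4 in the SMC1 library. Ncaph2 had an RPKM of 80.2 in the GFP control, 16.9 with CAPH2 #1 and 27.9 with CAPH2 #2, and it was also lower in the SMC1 library, at 54.0. Smc2 had an RPKM of 26.6 in the GFP control and 18.8 and 19.1 with SMC2 #1 and #2. Against the GFP control, this lower level of Smc2 depends on the scaling. Its log2 change with SMC2 was -0.49 from the RPKM and 0.11 when scaled to the ERCC spike-ins. The other knockdown libraries held more Smc2, at 41.9 RPKM with SMC1 and 42.3 and 40.6 with CAPH2 #1 and #2. Scaled to the ERCC spike-ins, its log2 changes against GFP were 1.52 with SMC1 and 0.98 with CAPH2. Smc2 was thus lower with its own hairpins than in the other knockdown libraries on both scales. The SMC1 library stood apart from the other 5 in its markers. The summed RPKM of 12 ESC genes was 4162 in the GFP control, 2200 in the SMC1 library and 3436 to 3649 in the 4 condensin libraries, with all 12 at an RPKM of at least 1 in every library. Among these genes the SMC1 library held 21.5 RPKM of Esrrb against 210 in the GFP control, and 25.3 RPKM of Klf2 against 210. Klf4 was at 9.23 against 78.5, and Tfcp2l1 at 5.32 against 44.9.

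Most of the 10 genes were higher in the SMC1 library than in any other. The SMC1 library had the highest RPKM of the 6 for 8 of the 10 genes, against 38% of the 18463 rows tested, in which 2 or more libraries had 10 counts or more. It had the lowest RPKM for Igf2bp2 and Drosha, against 34.1% of rows. The GFP control had the lowest RPKM for 6 of the 10 genes (Lin28a, Lin28b, Trim71, Hmga2, Dgcr8 and Dicer1), against 28.3% of rows, and the highest for Igf2bp2 alone, against 28.6%. All 10 genes passed the filter on low counts, with 685 counts for Hmga2 in the GFP control as the smallest and 23249 for Lin28a in the SMC1 library as the largest.

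**Figure D1:**
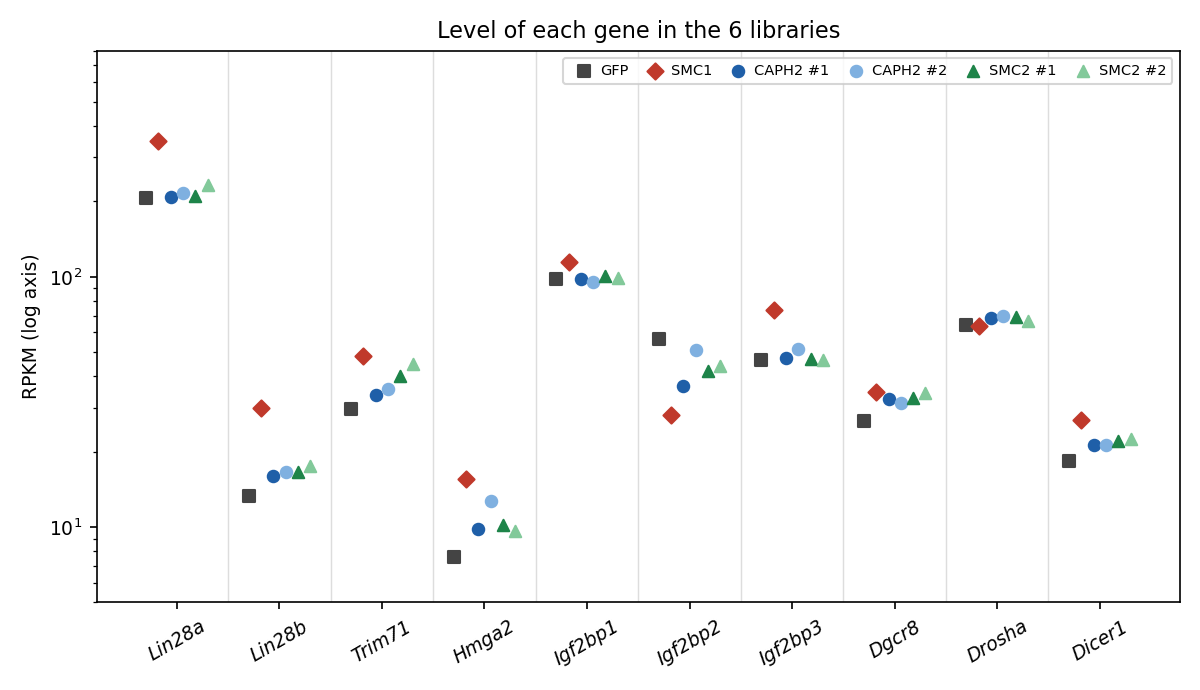
RPKM (vertical log axis) of each of the 10 genes (horizontal axis) in the 6 libraries, 1 point per library. Lin28a is the highest and Hmga2 the lowest gene in every library, and the SMC1 diamond is the highest point for 8 genes and the lowest for Igf2bp2 and Drosha.

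Levels of different genes can be set side by side because RPKM is given per length. Lin28a had the highest RPKM in every library and Igf2bp1 the next, while Hmga2 had the lowest. The ratio of Lin28a to Hmga2 ran from 17.1 with CAPH2 #2 to 27.2 in the GFP control. In the GFP control the descending order between Igf2bp1 and Hmga2 was Drosha, Igf2bp2, Igf2bp3, Trim71, Dgcr8, Dicer1 and Lin28b. In the SMC1 library it was Igf2bp3, Drosha, Trim71, Dgcr8, Lin28b, Igf2bp2 and Dicer1. Igf2bp2 and Igf2bp3 were close with CAPH2 #2 (51.1 and 51.5 RPKM), as were Trim71 and Igf2bp2 with SMC2 #2 (44.7 and 43.9), so the order of these neighbors differed between libraries.

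The Lin28 paralogs were both highest in the SMC1 library. Lin28a (NM_145833, chromosome 4 from 133559245 to 133574731, minus strand, mm9) encodes the LIN28 protein that is abundant in ESCs. Its RPKM was 207 in the GFP control, 347 in the SMC1 library, 209 and 217 with CAPH2 #1 and #2, and 209 and 232 with SMC2 #1 and #2. The SMC1 library was therefore clear of the other 5, which lay close together. Its level in the SMC1 library was 168% of the GFP control (95% exact binomial interval of the counts, 164 to 171). These intervals, here and below, cover counting error only, since neither the GFP nor the SMC1 library has a replicate.

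Lin28b (NM_001031772, chromosome 10 from 45096439 to 45190007, minus strand) encodes the paralog with the same RNA-binding domains. Its RPKM was 13.3 in the GFP control, 29.8 in the SMC1 library, 16.1 and 16.6 with CAPH2, and 16.7 and 17.5 with SMC2. The GFP control was lowest, the 4 condensin libraries lay above it, and the SMC1 library was far above both. Lin28b was at 223% of the GFP control in the SMC1 library (210 to 237) and at 120% to 131% in the condensin libraries. The RPKM ratio of Lin28a to Lin28b was 15.5 in the GFP control, 11.7 in the SMC1 library and 12.6 to 13.2 in the condensin libraries.

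Trim71 (NM_001042503, chromosome 9 from 114420393 to 114473487, minus strand) encodes an RNA-binding ubiquitin ligase of stem cells. Its RPKM was 29.6 in the GFP control, 48.1 in the SMC1 library, 33.6 and 35.7 with CAPH2, and 40.2 and 44.7 with SMC2. Both SMC2 values were above both CAPH2 values, and SMC2 #2 came near the SMC1 library. Against the GFP control it was at 163% with SMC1 (156 to 170), at 114% and 121% with CAPH2, and at 136% and 151% with SMC2.

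Hmga2 (NM_010441, chromosome 10 from 119798331 to 119913991, minus strand) encodes an architectural chromatin protein and is the classic let-7 target. Its RPKM was 7.62 in the GFP control, 15.6 in the SMC1 library, 9.78 and 12.7 with CAPH2, and 10.2 and 9.65 with SMC2. All 5 knockdown libraries were above the GFP control, and the CAPH2 hairpins differed from each other more than those of SMC2 did. It was at 204% of the GFP control with SMC1 (186 to 224), and at 128% (116 to 142) and 166% (151 to 183) with CAPH2 #1 and #2, whose intervals do not overlap.

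The 3 Igf2bp genes, which encode RNA-binding proteins that stabilize and localize mRNAs, differed in direction. Igf2bp3 (NM_023670, chromosome 6 from 49035218 to 49164953, minus strand) had an RPKM of 46.5 in the GFP control, 73.9 in the SMC1 library, 47.5 and 51.5 with CAPH2, and 47.0 and 46.5 with SMC2. Like Lin28a it was high in the SMC1 library alone, at 159% of the GFP control (153 to 165). Exons of 2410003K15Rik on the other strand cover 35.2% of its annotated exon bases, and the library kit does not mark strand, so reads from these genes there cannot be told apart. Igf2bp1 (NM_009951, chromosome 11 from 95818478 to 95867258, minus strand) had an RPKM of 97.9 in the GFP control, 115 in the SMC1 library, 97.8 and 95.5 with CAPH2, and 101 and 99.1 with SMC2. Its level in the SMC1 library was 117% of the GFP control (115 to 120), and the condensin libraries were on both sides of the GFP control.

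Igf2bp2 was the exception among the genes with a let-7 match. Igf2bp2 (NM_183029, chromosome 16 from 22059082 to 22163372, minus strand) had an RPKM of 56.6 in the GFP control, 28.0 in the SMC1 library, 36.8 and 51.1 with CAPH2, and 42.2 and 43.9 with SMC2. The GFP control was highest and the SMC1 library lowest, and CAPH2 #1 and #2 lay on either side of the SMC2 values. It was at 49.4% of the GFP control with SMC1 (46.9 to 52.0), at 64.9% (62.1 to 67.9) with CAPH2 #1 and at 90.2% (86.4 to 94.2) with CAPH2 #2. The RPKM ratio of Igf2bp3 to Igf2bp2 was 0.822 in the GFP control, 2.64 in the SMC1 library and 1.01 to 1.29 in the condensin libraries.

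With SMC1, the processing genes differed less from the GFP control than the Lin28 genes did. In the condensin libraries this did not hold for Lin28a, which at 101% to 112% of the GFP control was nearer to it than Dicer1 and Dgcr8. Dicer1 (NM_148948, chromosome 12 from 105925952 to 105990162, minus strand) had an RPKM of 18.4 in the GFP control, 26.8 in the SMC1 library, 21.3 with each CAPH2 hairpin, and 22.02 and 22.5 with SMC2. The GFP, condensin and SMC1 libraries formed 3 separate levels, with the SMC1 level at 146% of the GFP control (140 to 152) and the condensin levels at 116% to 123%. Dgcr8 (NM_033324, chromosome 16 from 18254058 to 18289261, minus strand) had an RPKM of 26.6 in the GFP control, 34.8 in the SMC1 library, 32.4 and 31.4 with CAPH2, and 32.8 and 34.3 with SMC2. The 5 knockdown libraries lay together above the GFP control, and SMC1 was at 131% of it (124 to 138), little above SMC2 #2 at 129% (122 to 136). Exons of Trmt2a on the other strand cover 11.3% of the annotated exon bases of Dgcr8.

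Drosha (NM_026799, chromosome 15 from 12754570 to 12865046, plus strand) encodes the nuclear RNase that pairs with Dgcr8. Its RPKM was 64.1 in the GFP control, 63.4 in the SMC1 library, 68.6 and 69.5 with CAPH2, and 68.9 and 66.9 with SMC2. The GFP and SMC1 libraries were alike, at a ratio of 98.98% (95.5 to 103), and all 4 condensin libraries were slightly above both. The RPKM ratio of Drosha to Dgcr8 was 2.41 in the GFP control, 1.82 in the SMC1 library and 1.95 to 2.21 in the condensin libraries.

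**Figure D2:**
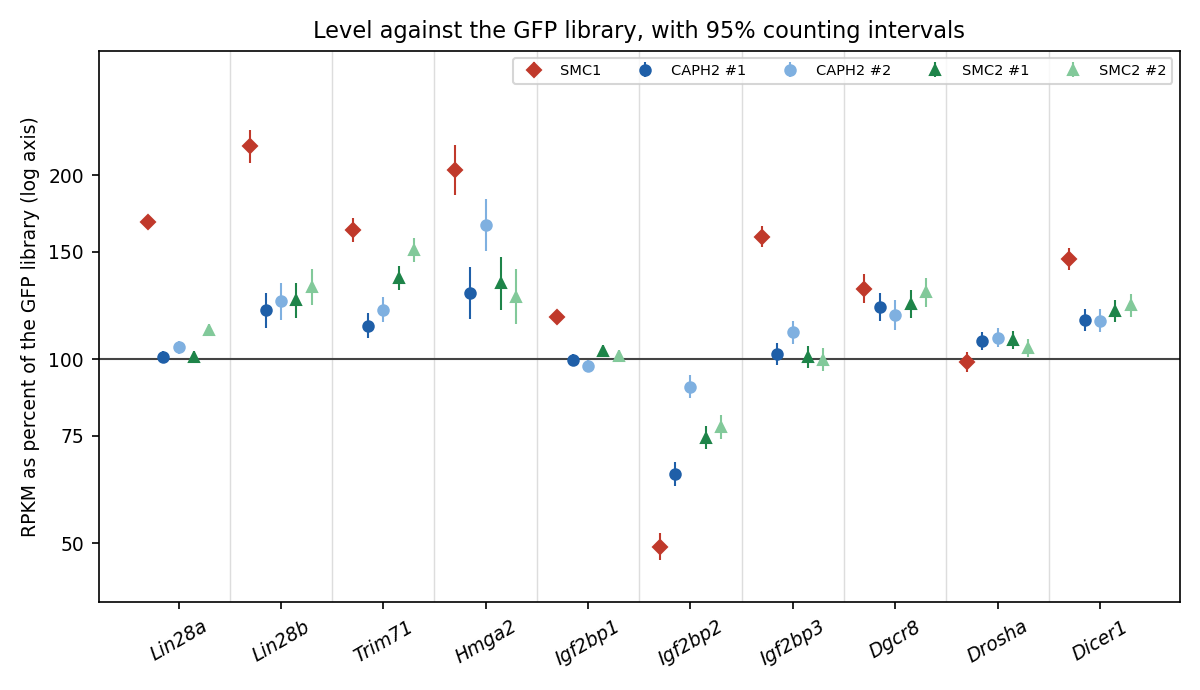
RPKM of each gene as a percent of the GFP control (vertical log axis, line at 100%) in the 5 knockdown libraries, with 95% exact binomial intervals of the counts. SMC1 lies near or above 150% for 6 genes and near 50% for Igf2bp2, and the condensin libraries lie between SMC1 and the line for Lin28a, Lin28b, Trim71, Hmga2, Igf2bp2, Dgcr8 and Dicer1.

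Against the GFP control, 5 of the 10 genes (Lin28a, Lin28b, Trim71, Hmga2 and Igf2bp3) were higher by at least 1.5-fold with SMC1, where 22.1% of the rows tested were. The log2 changes were 0.74 for Lin28a, 1.16 for Lin28b, 0.70 for Trim71, 1.03 for Hmga2 and 0.67 for Igf2bp3. Only Igf2bp2 was lower by at least 1.5-fold, with a log2 change of -1.02, where 17.2% of rows were. Each side is 1 library, and these changes were not tested. The median log2 change of the 10 genes was 0.61, against 0.018 over all 14629 genes tested. With CAPH2, the mean of the hairpins was past 1.5-fold for 0 of the 10 genes in either direction, where 7.05% of rows were higher and 4.63% were lower. With SMC2 the count was also 0 of 10, against 5.92% and 4.34% of rows. Where the GFP control reached an RPKM of 1, as it did for all 10 genes, 3.05% of rows were higher with CAPH2, 2.26% with SMC2 and 15.5% with SMC1. The largest mean changes were 0.56 for Hmga2 with CAPH2 (SD 0.26 between hairpins) and 0.52 for Trim71 with SMC2 (SD 0.11). The same single GFP control stands behind each of these changes.

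Scaling to the ERCC spike-ins instead of to the reads of each library moved the log2 changes of all genes by 0.86 with SMC1, by 0.63 and -0.047 with CAPH2 #1 and #2, and by 0.64 and 0.57 with SMC2. On that scale 9 of the 10 genes were higher by at least 1.5-fold with SMC1 and Igf2bp2 was at -0.15, and Drosha turned from -0.015 to 0.85. The counts of genes higher by at least 1.5-fold went from 0 to 3 with CAPH2 and from 0 to 9 with SMC2, and Igf2bp2 turned from -0.40 to 0.21 with SMC2. The directions given here are therefore relative to the total RNA counted in each library. In bulk RNA, fewer cells of a type and less RNA per cell cannot be told apart.

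**Figure D3:**
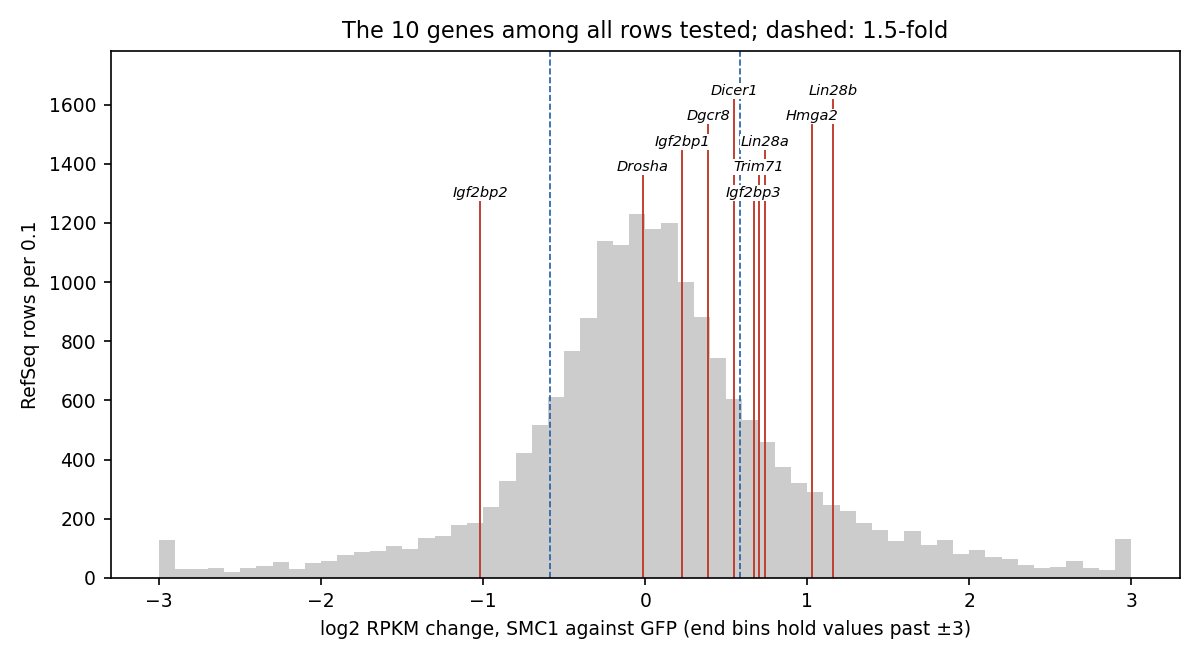
Number of RefSeq rows (vertical axis) by log2 RPKM change of SMC1 against GFP (horizontal axis, bins of 0.1, values past 3 placed in the end bins), with the 10 genes as red lines and the 1.5-fold limits dashed. Igf2bp2 is the 1 gene left of the lower limit, and 5 genes lie right of the upper limit, together with 22.1% of all rows.

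The SMC1 library was next tested against the condensin libraries, which does not use the GFP control. In an edgeR quasi-likelihood fit of all 6 libraries, with the lone SMC1 and GFP libraries assumed to vary like the hairpin pairs (2 residual degrees of freedom), 8 of the 10 genes had an adjusted p under 0.05, where 44.4% of rows did. Of these, 7 were higher with SMC1 (23.1% of rows) and only Igf2bp2 was lower (21.3% of rows). Lin28b rose most, with a log2 difference of 0.81 (SE 0.0748, edgeR adjusted p = 4.0e-05), against a mean of 16.7 ± 0.615 RPKM in the condensin libraries (SD, n = 4). Lin28a rose by 0.66 (SE 0.0718, edgeR adjusted p = 9.9e-05), against 217 ± 10.5 RPKM. Igf2bp3 rose by 0.60 (SE 0.0720, edgeR adjusted p = 0.00018), against 48.1 ± 2.302 RPKM.

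Differences were smaller or less certain for the rest. Hmga2 rose by 0.54 (SE 0.126, edgeR adjusted p = 0.0071) and Igf2bp2 fell by 0.66 (SE 0.150, edgeR adjusted p = 0.0062), and these genes had the largest standard errors of the 10, with 10.6 ± 1.41 and 43.5 ± 5.91 RPKM in the condensin libraries. Trim71 rose by 0.30 (edgeR adjusted p = 0.013), Dicer1 by 0.28 (edgeR adjusted p = 0.0087) and Igf2bp1 by 0.20 (edgeR adjusted p = 0.031). Dgcr8 differed by 0.064 (SE 0.0741, edgeR adjusted p = 0.52) and Drosha by -0.13 (SE 0.0687, edgeR adjusted p = 0.14), so neither difference passed the test. The same 8 genes passed with DESeq2 and with each hairpin left out in turn. With ERCC counts as library sizes 0 of the 10 passed, where 9.27% of rows did, with adjusted p-values from 0.081 for Lin28b to 0.86 for Igf2bp2, although the log2 differences of the 7 higher genes grew to between 0.62 and 1.23.

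The GFP control was tested against the same condensin libraries in the same fit. Here 4 of the 10 genes passed, where 12.5% of rows did, and all 4 were lower in the GFP control (7.04% of rows), while 0 were higher (5.43% of rows). The log2 differences were -0.38 for Trim71 (SE 0.0846, edgeR adjusted p = 0.023), -0.33 for Lin28b (SE 0.0819, edgeR adjusted p = 0.031), -0.31 for Dgcr8 (SE 0.0762, edgeR adjusted p = 0.031) and -0.26 for Dicer1 (SE 0.0701, edgeR adjusted p = 0.044). Hmga2 missed the threshold at -0.48 (SE 0.138, edgeR adjusted p = 0.052), as did Igf2bp2 at 0.37 (SE 0.138, edgeR adjusted p = 0.10). Drosha was at -0.11, Lin28a at -0.074, Igf2bp3 at -0.058 and Igf2bp1 at -0.018, with edgeR adjusted p-values from 0.33 to 0.88. These calls were less stable, since only Trim71 and Dgcr8 passed with DESeq2, only Trim71 passed without SMC2 #2, and 0 passed with ERCC counts as library sizes. Both contrasts share the condensin libraries, so their values for a gene are not independent.

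**Figure D4:**
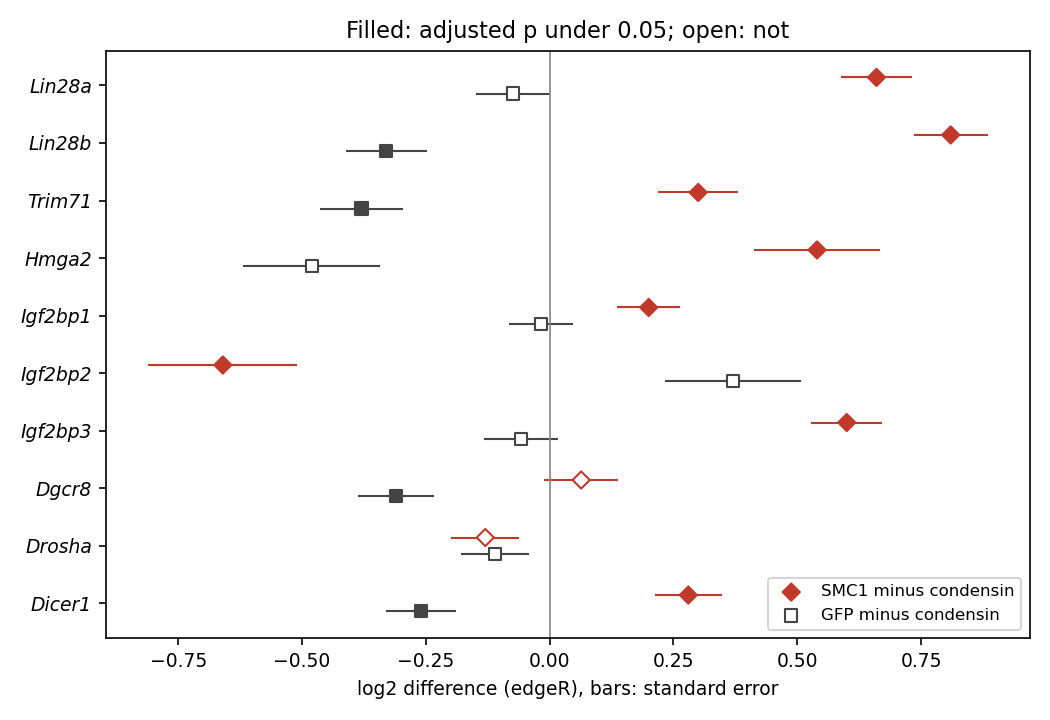
log2 differences from the edgeR fit of 6 libraries (horizontal axis, bars are standard errors) for SMC1 (red diamonds) and GFP (gray squares) against the condensin libraries, filled where the adjusted p was under 0.05. Filled red symbols mark 8 genes and filled gray symbols mark Lin28b, Trim71, Dgcr8 and Dicer1.

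The CAPH2 and SMC2 hairpins were compared with each other in a fit of those 4 libraries. None of the 10 genes passed, where 0.00548% of 18245 rows did (1 row), and DESeq2 also called 0 of the 10. The row called by edgeR was the knockdown target Smc2, higher with CAPH2 than with SMC2 by a log2 difference of 1.12 (edgeR adjusted p = 0.00033). The knockdown target Ncaph2, at a log2 difference of -1.54, missed the threshold (edgeR adjusted p = 0.051). A gene that did not pass may therefore still differ. At an unadjusted p under 0.05 there was 1 of the 10, Trim71, where 3.1% of rows were. Trim71 was lower with CAPH2 than with SMC2 by a log2 difference of -0.30 (SE 0.0732, edgeR unadjusted p = 0.0022, adjusted p = 1.0), and without CAPH2 #2 it passed the adjusted threshold in a fit that called 404 rows. For the other 9 genes the differences ran from -0.082 for Dgcr8 to 0.17 for Hmga2, with standard errors of 0.0578 to 0.127.

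Other genes of microRNA maturation and silencing gave mixed counts. Of 20 such genes, 5 were higher and 4 were lower with SMC1 than in the condensin libraries (edgeR adjusted p under 0.05), where 23.1% and 21.3% of all rows were, so both counts were near the background. The higher genes were Ago1 (0.63) and Ago3 (0.45), which encode Argonaute proteins that carry the microRNA, Tnrc6a (0.27) and Tnrc6b (0.50), which encode their silencing partners, and Prkra (0.48), a Dicer1 partner. The lower genes were Mov10 (-1.38), an RNA helicase, Tnrc6c (-0.34), Gemin4 (-0.28) and Ran (-0.21), which drives nuclear export. Ago2 had an RPKM of 21.3 in the GFP control, 33.8 in the SMC1 library, 24.8 and 27.6 with CAPH2, and 29.1 and 34.4 with SMC2. Like Trim71 it was higher with both SMC2 hairpins than with either CAPH2 hairpin, and its difference between SMC1 and the condensin libraries did not pass the test (0.21, edgeR adjusted p = 0.12). Against the GFP control, 6 of the 20 were higher by at least 1.5-fold with SMC1 and 1 was lower (30.0% and 5.00%), against 21.9% and 17.6% of all genes tested.

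Enzymes that tail and degrade let-7 precursors were also examined, with proteins that bind them (10 genes). With SMC1, 0 of these were higher and 3 were lower than in the condensin libraries, where 23.1% and 21.3% of all rows were. They were Dis3l2 (-0.29), the exonuclease that degrades uridylated pre-let-7, and the RNA-binding proteins Hnrnpa1 (-0.36) and Syncrip (-0.29). Dis3l2 had an RPKM of 16.2 in the GFP control, 10.9 in the SMC1 library and 12.4 to 13.8 in the condensin libraries. The uridylyl transferase Tut4, which works with LIN28, had an RPKM of 15.0 in the GFP control, 19.3 in the SMC1 library and 16.7 to 19.0 in the condensin libraries, so the SMC1 value was just above the highest condensin value (0.12, edgeR adjusted p = 0.29). Tut7, a related transferase, differed by 0.22 (edgeR adjusted p = 0.094).

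Among 30 other genes described as let-7 targets, 12 were higher and 3 were lower with SMC1 than in the condensin libraries, where 23.1% and 21.3% of all rows were. The share higher by at least 1.5-fold against GFP was 40%, and 3.33% were lower, against 21.9% and 17.6% of all genes tested. Their median log2 change with SMC1 against GFP was 0.36, against 0.018 over all genes tested. The 30 genes were chosen with earlier results of these data known and were not matched for 3′ UTR length. Of genes with a 3′ UTR of at least 2000 bases and no let-7 match, 32.5% were higher by at least 1.5-fold, and the median was 0.28. Ccnd2, a cell cycle cyclin, had an RPKM of 7.03 in the GFP control, 20.5 in the SMC1 library and 10.5 to 11.6 in the condensin libraries. It was above the GFP control in all 5 knockdown libraries, and the SMC1 value was clear of the others (0.84, edgeR adjusted p = 4.9e-05). Tgfbr1, a TGF-β receptor, differed by 0.66 from the condensin libraries, Dusp4, a phosphatase of MAP kinases, by 0.79, and Onecut2, a transcription factor of low level here, by 2.17, and all of these passed the test.

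Genes with at least 2 let-7 seed matches in the 3′ UTR, the 10 genes left out, were then taken without regard to earlier naming. Their median log2 change with SMC1 against GFP was 0.27 over 163 genes, against 0.011 over 11231 genes with no match and 0.084 over 1195 genes with 1 match. With CAPH2 and SMC2 the medians of the 163 genes were 0.036 and 0.061. The length of the 3′ UTR moved with this result, since its median was 3264 bases for the genes with at least 2 matches and 1050 bases for those with no match. Among genes with a 3′ UTR of at least 2000 bases, a limit chosen after the values were seen, the medians with SMC1 were 0.28 for no match (2844 genes), 0.25 for 1 match (606 genes) and 0.26 for at least 2 matches (130 genes). Within long 3′ UTRs the median was thus no higher for genes with let-7 matches than for genes without them.

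**Figure D5:**
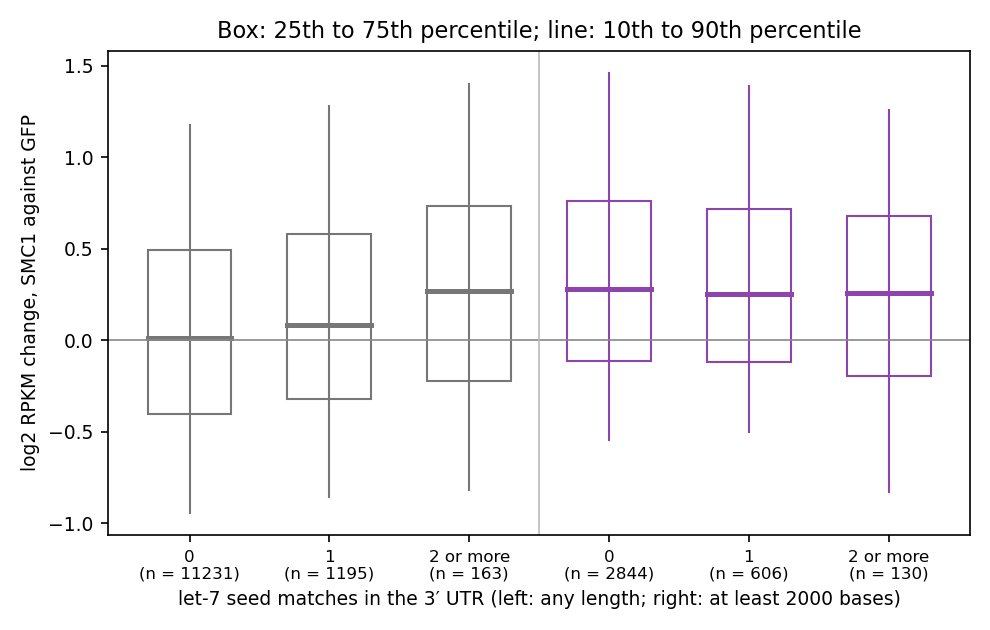
log2 RPKM change of SMC1 against GFP (vertical axis) for genes grouped by let-7 seed matches in the 3′ UTR, for all lengths (gray) and for 3′ UTRs of at least 2000 bases (purple), with the median, the 25th to 75th percentiles and the 10th to 90th percentiles. The medians rise from 0.011 to 0.27 over all lengths and lie between 0.25 and 0.28 in long 3′ UTRs.

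The summed RPKM of each list of markers of other cell states was highest in the SMC1 library, although not every marker rose. The summed RPKM of 8 formative epiblast genes was 234 in the GFP control, 410 in the SMC1 library and 241 to 269 in the condensin libraries, and all 8 were at an RPKM of at least 1 in every library. Within it Dnmt3b, a DNA methyltransferase, had an RPKM of 115 in the GFP control and 207 in the SMC1 library, and Fgf5 had 2.23 and 5.93. With SMC1, 6 of the 8 formative genes were above the GFP control, 5 of them by at least 1.5-fold, and the rest were not above it. The sum of 12 primitive endoderm genes was 71.3, 161 and 77.2 to 85.3 in the same order, and 6 of 12 were at an RPKM of at least 1 in every library. Lrp2 was at 6.55 and 60.4, Col4a1 at 12.2 and 34.9, and Lama1 at 13.1 and 6.47 in the GFP control and the SMC1 library. The sum of 7 trophectoderm genes was 171, 287 and 132 to 177. Its higher value with SMC1 rested on Krt18 and Krt8. Krt18 was at 61.0 and 156, Krt8 at 51.4 and 117.5, and Tfap2c at 51.2 and 5.85 in the GFP and SMC1 libraries. Of the 6 trophectoderm genes tested, 3 were higher and 2 were lower by at least 1.5-fold with SMC1 against GFP. The trophectoderm list thus did not rise as a whole. For 6 neural genes the sum was 107, 143 and 108 to 124, and Nes had 15.0 and 42.9. Before infection, the cells had been placed in a dish for a time, a step meant to remove the fibroblasts on which the ESCs grow. Whether any fibroblasts remained was not tested. The sum of 12 fibroblast genes was 56.5 in the GFP control, 125 in the SMC1 library and 62.0 to 85.2 in the condensin libraries, with 7 of 12 at an RPKM of at least 1 in every library. Among these Col1a2 had 12.3 and 33.2 RPKM in the GFP and SMC1 libraries, and Twist1 had 5.33 and 18.5. No list had a marker at 0 in every library. The part of these cell states in the levels of the 10 genes was not tested.

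For 5 of the genes, the genes with the most similar changes were found by the root mean square difference of the 5 log2 changes against GFP, among 10066 genes with a mean of at least 200 counts. For Lin28a they were Mrs2 (0.0288), E2f6 (0.0317) and Tbl1x (0.0377). For Lin28b they were Soga1 (0.0538), Ttc21b (0.0602) and Simc1 (0.0621). For Trim71 they were Zfp462 (0.0298), Ago2 (0.0666) and Mll1 (0.0763). Dicer1 was nearest to Ctbp2 (0.0276), Pafah1b2 (0.0312) and Lemd3 (0.0327). Hmga2 had no gene as near as these, with Dock11 (0.12), Pphln1 (0.12) and Pwwp3b (0.13) the closest. All of these values rest on 5 libraries that share the GFP control.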

How the data were processed

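RNA-seq of 6 libraries was analyzed, grouped by the sample titles. Reads had been aligned by the authors to mm9 with Bowtie, and they deposited raw counts of exonic reads for 26073 RefSeq rows and 92 ERCC rows. The deposited RPKM values were scaled by the authors for exon length and library reads, not to the ERCC RNAs. Symbols were taken by accession for 25353 rows and by position against GENCODE vM1 for 698, and 22 rows had none. Drosha has 2 rows with the same counts. The 10 genes and the gene lists were chosen with earlier results of these data known. Besides the 10 genes and the knockdown targets, the genes named were up to 4 per list with the largest SMC1 change against GFP (mean of at least 50 counts), any microRNA machinery or let-7 turnover gene with an adjusted p under 0.05, and the 3 nearest genes for 5 of the 10.

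Changes against GFP are ratios of deposited RPKM, with exact binomial intervals (95%) of the counts. The other comparisons used the quasi-likelihood test of edgeR 4.0.16 with TMM scaling, adjusted by Benjamini-Hochberg over all rows, in R 4.3.3, on rows where 2 or more libraries had 10 counts or more. Whether hairpins came from separate cultures is not given in the sources used here, so p-values measure only the spread between these libraries. On simulated counts with 200 rows changed by 2-fold, 199 were recovered for CAPH2 against SMC2 over 18139 rows (6 false among 205 calls). For SMC1 against condensin 197 were recovered over 18334 rows (10 among 207), and for GFP against condensin 197 over 18336 rows (14 among 211). Every simulated row and library was given the same spread, the lone SMC1 and GFP libraries included. The simulation therefore cannot show how the calls fare if a lone library varies more, if rows differ in spread, or for changes under 2-fold. Alternatives were DESeq2 1.42.0, other scalings (DESeq2 size factors, ERCC counts), no filter, a single row per gene, a pseudocount of 1, the replicate block and leaving out each hairpin. Other steps used Python 3.11.15 and scipy 1.17.1. Seed matches were counted in the longest annotated 3′ UTR per gene (GENCODE vM1).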

Additional observations from a re-analysis of the deposited data

Results flagged for a closer look

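The difference between SMC1 and the condensin libraries passed the edgeR test (adjusted p under 0.05) for 8 genes. SMC1 is 1 library, which this fit assumes to vary like the hairpin pairs. The log2 differences, SMC1 minus condensin, were 0.66 for Lin28a, 0.81 for Lin28b, 0.30 for Trim71, 0.54 for Hmga2, 0.20 for Igf2bp1, -0.66 for Igf2bp2, 0.60 for Igf2bp3 and 0.28 for Dicer1, where 44.4% of rows passed. Drosha was at -0.015 on the log2 scale with SMC1 against GFP. Its counting interval there, 95.5% to 103% of the GFP control, spans no change, so no direction can be given. In all 4 condensin libraries Drosha was above the GFP control, by 0.062 to 0.12. In the edgeR comparison of GFP with condensin its log2 difference was -0.11, which did not pass. The SMC1 value turned to 0.85 under ERCC scaling.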

How the results depend on the processing

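GFP and SMC1 rest on 1 library each, and 2 residual degrees of freedom carry every edgeR call. ERCC counts as library sizes changed most results. Under them, 9 genes were higher and 0 lower by at least 1.5-fold with SMC1 against GFP, 3 were higher with CAPH2 and 9 with SMC2. Of the 58 genes named for these comparisons, 8 changed sign with SMC1 (Drosha, Ncaph2 and Hand1, at 0.13, among them), 12 with CAPH2 (Igf2bp1 among them) and 15 with SMC2 (Igf2bp2, Ncaph2, Smc2 and Mov10, at 0.0057, among them). SMC1 against condensin then called 1711 rows and 0 of the 10 genes, with Drosha at 0.29. GFP against condensin called 2 rows and 0 of the 10 genes, with Igf2bp2 at -0.058. CAPH2 against SMC2 called 4 rows, with Hmga2 at -0.14, Igf2bp2 at -0.30, Igf2bp3 at -0.20, Drosha at -0.25 and Smc1a at -0.18. The cause was not tested.

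With other settings, CAPH2 against SMC2 called 3 rows with DESeq2 size factors, 5 with DESeq2, 8 with no filter and 3 in the fit of all 6 libraries. Deviations from the target means had a correlation of 0.049 between same-numbered CAPH2 and SMC2 libraries, so the numbers were not taken to pair them. This is not the correlation of the levels themselves. The replicate block called 15 rows with Igf2bp2 at -0.00043 and 0 of the 10 genes. Leaving out 1 hairpin gave 1 to 404 rows and 0 to 1 of the 10 genes (404 rows and Trim71 without CAPH2 #2, 29 rows without CAPH2 #1). Over these 4 fits Lin28a ran from -0.13 to 0.013, Hmga2 from -0.027 to 0.35, Igf2bp2 from -0.24 to 0.24 (-0.01 without SMC2 #1) and Drosha from -0.0075 to 0.037.

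GFP against condensin called 1417 rows and 2 of the 10 genes with DESeq2. Leaving out a hairpin gave 1563 to 4993 rows (3511 without CAPH2 #1 and 4993 without CAPH2 #2) and 1 to 6 of the 10 genes. Igf2bp1 turned to 0.00026 with DESeq2, 0.00027 with DESeq2 size factors, and ran from -0.011 to 0.0072 with a hairpin left out. Against GFP, a single hairpin put 0 to 1 genes past 1.5-fold in each direction for CAPH2 (Hmga2 higher with #2, Igf2bp2 lower with #1) and 0 to 1 higher for SMC2 (Trim71 with #2). The median of the genes with let-7 matches exceeded that of all genes by 0.25 with at least 2 matches, 0.081 with at least 1 and 0.15 with a match followed by A. It was -0.021 relative to genes with no match among 3′ UTRs of at least 2000 bases.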

Other observations

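Rows of 12 let-7 family precursors are listed in the deposited counts, and 7 of these were at 0 in every library. The 12 rows together held 7 counts in the GFP control, 21 in the SMC1 library, 11 and 13 with CAPH2 #1 and #2, and 7 and 11 with SMC2 #1 and #2. Most came from Mirlet7d, with 5 counts in the GFP control, 16 in the SMC1 library, 5 and 9 with CAPH2, and 3 and 7 with SMC2. Its level per read in the SMC1 library was 358% of the GFP control, with a 95% exact binomial interval of 125 to 1250.2 that covers counting error only. Which transcripts these reads come from was not examined, and mature let-7 was not measured.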
